A study of Homo sapiens with 12 samples.

Results

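Heat shock protein genes encode molecular chaperones, and 10 of them were followed here: HSPA1A, HSPA1B, HSPA8, HSP90AA1, HSP90AB1, HSPH1, DNAJB1, HSPB1, HSPD1 and HSPE1. They were chosen by name as the major cytosolic and mitochondrial chaperones, and all 10 were found among the 13869 genes of the deposited table. All 10 passed the filter on low counts. RNA was sequenced from 2 human ovarian cancer cell lines, both labelled wild type, that had been kept for 24 h in medium holding either lestaurtinib at 500 nM or DMSO alone as the vehicle. The line MDAH-2774 is labelled as an endometrioid and OVSAHO as a high grade serous ovarian cancer line. Lestaurtinib is an indolocarbazole that blocks kinases such as FLT3 and JAK2. There were 3 libraries in each of the 4 groups, and nothing in the labels says that these came from separate cultures, so p-values measure the spread between libraries, which may be technical.

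Chaperones of the HSP70 family bind unfolded stretches of protein in a cycle driven by ATP, with J proteins that deliver the client and nucleotide exchange factors that release it. HSP90 dimers take over near-folded clients, many of them protein kinases, while HSP60 and its lid HSP10 fold proteins inside a closed chamber in mitochondria. The transcription factor HSF1 raises many of these genes when proteins misfold by binding heat shock elements, which are inverted repeats of the unit GAAnn written on either strand. In cancer cells, HSP90 and HSP70 are known for keeping mutated or overproduced client kinases folded.

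Depth was 32875940 to 55941446 counts per library. Of 10 epithelial and ovarian markers, 9 had a row in the table and summed to 1705 to 2821 CPM (counts scaled to library size), and MUC16 had none. With the drug 2 of these 9 rose and 5 fell in MDAH-2774, where 8.08% of all genes tested were called higher and 9.05% lower. In OVSAHO 4 of the 9 rose and 2 fell, against 9.19% higher and 6.54% lower of all genes. The MDAH-2774 counts were 1 and 2 without treated library 1, 1 and 3 without treated library 2 or 3, 1 higher without vehicle library 1 and 3 lower without vehicle library 2. Of 13 markers of blood, vessel, stroma and muscle cells, 5 had a row (CD68, CDH5, COL1A1, ACTA2 and DES), with none at 0 in any group and a sum of 10.42 to 37.08 CPM. Among these CDH5 rose in both lines, from 1.624 to 12.9 CPM in MDAH-2774 (log2 2.99, edgeR adjusted p = 0.000189) and from 0.1297 to 1.56 CPM in OVSAHO (log2 3.69, adjusted p = 0.000387). CD68 fell from 26.32 to 9.547 CPM in MDAH-2774 (log2 -1.46, adjusted p = 2.61e-06) and from 14.66 to 10.61 CPM in OVSAHO (log2 -0.46, adjusted p = 0.0403), where the call was lost in 11 of 24 alternatives, among them without treated library 1 or 2, any 1 vehicle library or MDAH-2774 treated library 1 or 2 (adjusted p of 0.0537 to 0.129). The part of these changes in the results was not tested. In this bulk RNA, fewer cells and less RNA per cell cannot be told apart.

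The 250 bases upstream of the start sites are shown for 5 of the genes, because the heat shock elements there are the feature by which HSF1 is known to act on them. HSPA1A and HSPA1B are the near-identical stress-inducible HSP70 genes, HSPA8 is the constitutive HSP70 gene, HSP90AA1 the inducible HSP90 gene and DNAJB1 the main stress-inducible J protein gene. The sequences are from RefSeq (GRCh38.p14), run 5′ to 3′ on the strand of the gene, and end at the base before the start site. The windows are chr6:31815293-31815542 on the plus strand for HSPA1A and chr6:31827488-31827737 on the plus strand for HSPA1B. They are chr11:123062137-123062386 on the minus strand for HSPA8, chr14:102087045-102087294 on the minus strand for the second of 2 listed starts of HSP90AA1, and chr19:14518398-14518647 on the minus strand for the second of 3 listed starts of DNAJB1. Capitals mark matches to pairs or triplets of the heat shock unit.
HSPA1A: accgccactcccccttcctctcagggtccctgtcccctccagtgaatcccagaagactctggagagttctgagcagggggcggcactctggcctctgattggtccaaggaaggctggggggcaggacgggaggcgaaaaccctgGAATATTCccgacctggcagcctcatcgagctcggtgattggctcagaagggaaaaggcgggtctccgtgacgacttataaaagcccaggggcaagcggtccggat
HSPA1B: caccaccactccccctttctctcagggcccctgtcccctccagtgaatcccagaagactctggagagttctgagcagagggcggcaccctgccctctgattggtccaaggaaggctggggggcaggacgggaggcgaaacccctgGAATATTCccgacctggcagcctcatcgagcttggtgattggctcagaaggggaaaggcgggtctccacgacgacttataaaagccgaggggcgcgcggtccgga
HSPA8: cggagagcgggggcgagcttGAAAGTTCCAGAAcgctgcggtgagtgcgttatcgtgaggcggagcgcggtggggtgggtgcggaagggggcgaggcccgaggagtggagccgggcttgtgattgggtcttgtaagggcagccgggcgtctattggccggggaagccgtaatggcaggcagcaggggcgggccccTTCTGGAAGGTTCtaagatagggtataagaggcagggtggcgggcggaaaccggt
HSP90AA1: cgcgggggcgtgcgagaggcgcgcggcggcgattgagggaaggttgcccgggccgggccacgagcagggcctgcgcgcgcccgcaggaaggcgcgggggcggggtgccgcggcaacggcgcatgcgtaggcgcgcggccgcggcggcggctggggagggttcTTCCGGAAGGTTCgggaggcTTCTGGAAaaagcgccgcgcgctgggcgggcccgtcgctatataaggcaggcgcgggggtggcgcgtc
DNAJB1: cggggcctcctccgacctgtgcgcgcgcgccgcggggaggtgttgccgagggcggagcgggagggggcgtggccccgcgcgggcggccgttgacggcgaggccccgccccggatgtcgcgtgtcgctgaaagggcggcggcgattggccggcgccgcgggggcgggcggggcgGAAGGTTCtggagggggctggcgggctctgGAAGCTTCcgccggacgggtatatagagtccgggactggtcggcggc

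The triplet was searched as GAANNTTCNNGAA and its reverse complement TTCNNGAANNTTC, and the pairs as GAANNTTC and TTCNNGAA, each of which reads the same on both strands; every triplet also holds both pairs. All 10 genes matched an entry, with 16 listed starts between them. The triplet lay upstream of 4 of these 16 starts, 1 each of HSPA8, HSP90AA1, HSP90AB1 and HSPD1, and in 0.44% of 35116 promoters of the same length. For HSP90AA1, HSP90AB1 and HSPD1 it was not at the first listed start. HSPA8 held it at positions -230 to -218 and -55 to -43 before the start. A pair lay upstream of 8 of the 16 starts, 1 for each gene but HSPH1 and HSPE1. It lay in 11.58% of all promoters (5.78% for GAANNTTC and 6.62% for TTCNNGAA). The HSPE1 window, chr2:197500129-197500378, stops short of the neighbouring HSPD1 window that held the triplet, chr2:197499841-197500090. Bases beyond each window were not searched, so HSPE1 cannot be said to lack that element. HSPA1A and HSPA1B each held 1 pair, GAATATTC, at -106 to -99 and -105 to -98. Both also held the letters TATAAA, searched on both strands and present in 10.72% of all promoters, from -30 and -29. Their windows were 93.6% identical, with 235 identical positions, 14 mismatches and 2 gaps. These matches describe letters in a window and were not measured as bound sites.

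In RPKM (reads scaled to gene length and library size, as deposited), which allows levels to be compared between genes, HSP90AB1, HSPA8, HSP90AA1 and HSPD1 stood above the other 6 genes in every group. HSP90AB1, the constitutive HSP90, was highest in every group, at 1792 ± 67.7 RPKM (SD, n = 3) in vehicle MDAH-2774 and 1583 ± 66.3 RPKM in vehicle OVSAHO, which were ranks 22 and 47 of the 13869 genes. HSPA8 followed in every group, at 1142 ± 42.8 RPKM in vehicle MDAH-2774 and 699.7 ± 40.3 RPKM in vehicle OVSAHO. HSPH1, which encodes the HSP110 exchange factor of HSP70, was the lowest of the 10 in every group, at 9.852 ± 0.25 RPKM and 16.92 ± 0.259 RPKM in the vehicle groups.

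**Figure D1:**
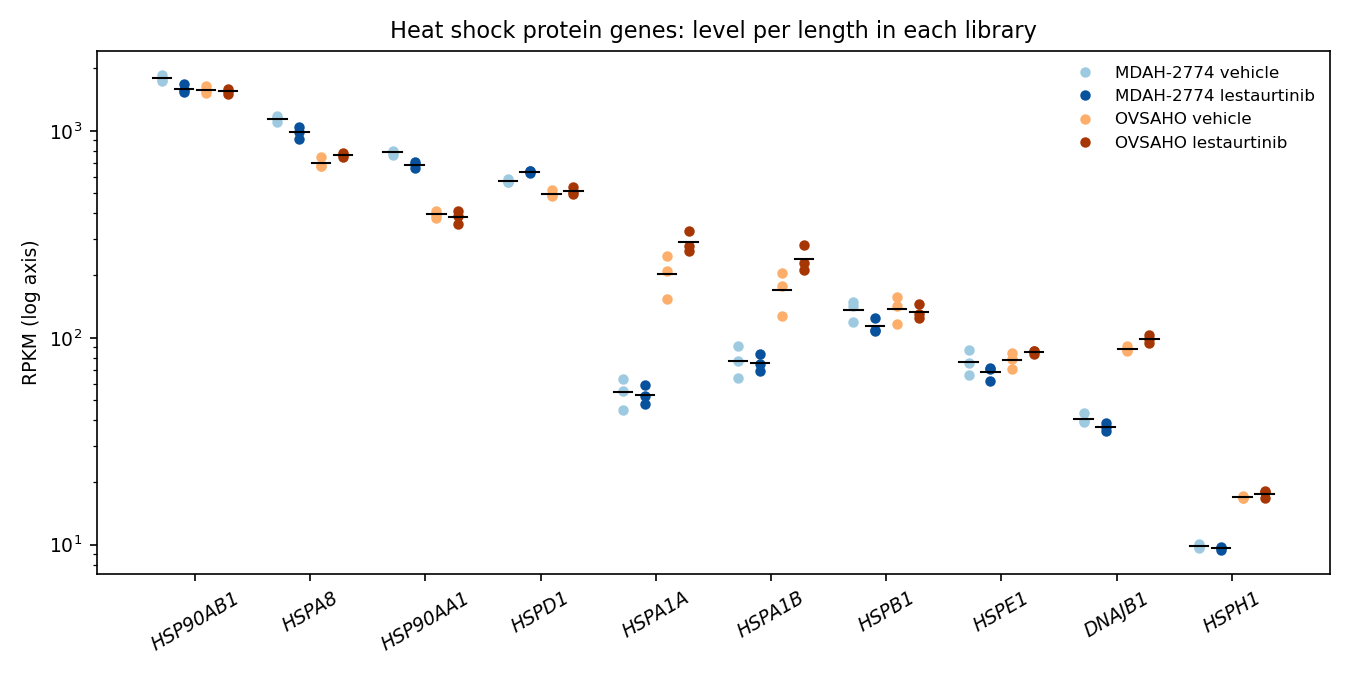
RPKM of the 10 genes in each of the 12 libraries, on a log axis, with 1 point per library, a line at each group mean and colours for the 4 groups. HSP90AB1, HSPA8, HSP90AA1 and HSPD1 lie at or above 355.3 RPKM in every library, and HSPH1 lies at or below 18.18 RPKM in every library.

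In MDAH-2774, vehicle and treated alike, the order from high to low was HSP90AB1, HSPA8, HSP90AA1, HSPD1, HSPB1, HSPA1B, HSPE1, HSPA1A, DNAJB1 and HSPH1. Among neighbours in that order, the library ranges overlapped for 1 pair, HSPA1B and HSPE1. In OVSAHO, HSPD1 stood above HSP90AA1, and HSPA1A and HSPA1B had moved up to the next ranks, ahead of HSPB1, DNAJB1, HSPE1 and HSPH1. There the ranges of HSPA1A and HSPA1B overlapped in both groups, and those of HSPA1B and HSPB1 overlapped in the vehicle group. HSPE1 and HSPD1 encode HSP10 and HSP60, which act as 1 machine and are transcribed away from each other from a shared promoter region. HSPE1 stood at 9.849 to 17.38% of the RPKM of HSPD1 over the 12 libraries. The 2 genes share 276 exon bases on opposite strands, and the HSPE1-MOB4 readthrough gene, which overlaps HSPE1, had no row in the table. Whether reads were counted by strand is not given here, so the split between these genes is uncertain. DNAJB1 likewise shares 207 exon bases with TECR in the table. HSP90AA1 overlaps the span of WDR20, and HSPA8 holds the small nucleolar RNA genes SNORD14C, SNORD14D and SNORD14E, with 0 shared exon bases.

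Without the drug, 6 of the 10 genes differed between the lines. The inducible HSP70 pair, DNAJB1 and HSPH1 were higher in OVSAHO, while HSP90AA1 and HSPA8 were lower, so 4 of the 10 were called higher and 2 lower at an adjusted p below 0.05. The lines differed in most genes: 77.4% of the 13498 tested genes were called in this comparison, 38.6% higher and 38.9% lower, and a count of 6 in 10 lies near that background. The median log2 difference was 0.18 over the 10 genes and -0.02 over all genes tested. HSPA1A and HSPA1B can share reads, so in every count and median over the 10 genes they are not 2 separate measurements. With both copies summed to 1 row, the median of these genes was 0.17.

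HSPA1A measured 104.8, 127 and 146.9 CPM (scaled with TMM, as all CPM here) in vehicle MDAH-2774 and 635.4, 400.2 and 542.2 CPM in vehicle OVSAHO. Every OVSAHO library lay above every MDAH-2774 library, and the fitted difference was 4.168-fold (log2 2.06 ± 0.14 SE, edgeR adjusted p = 6.53e-10). HSPA1B measured 155.4, 183.6 and 218.7 CPM in MDAH-2774 and 549.2, 342.3 and 473 CPM in OVSAHO, a 2.447-fold difference (log2 1.29 ± 0.15 SE, adjusted p = 3.49e-07). The split of reads between the copies is uncertain. With the counts of both added to 1 row, the log2 difference was 1.65 (edgeR adjusted p = 1.15e-08). DNAJB1, the J protein that feeds clients to HSP70, measured 125.6, 122.1 and 137.4 CPM in MDAH-2774. It measured 317.9, 310 and 302.8 CPM in OVSAHO, and the log2 difference was 1.27 ± 0.06 SE (adjusted p = 1.64e-12). HSPH1 stood at 58.74 to 63.02 CPM in MDAH-2774 and at 114.2 to 118.7 CPM in OVSAHO, with no overlap (log2 0.93, adjusted p = 1.71e-10).

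HSP90AA1 lay the other way, at 3110, 3091 and 2997 CPM in vehicle MDAH-2774 and 1647, 1793 and 1698 CPM in vehicle OVSAHO. The groups did not overlap (log2 -0.84 ± 0.05 SE, adjusted p = 9.9e-11). HSPA8 was also lower in OVSAHO, at 1768 to 1979 CPM against 2601 to 2827 CPM (log2 -0.55, adjusted p = 5.74e-08). HSP90AB1 did not pass the test, with a log2 difference of -0.03 and a 95% interval of -0.12 to 0.07. HSPD1 (log2 -0.05), HSPB1 (0.17) and HSPE1 (0.19) did not pass either. HSP90AB1 thus stood at 2.19 to 2.369 times the RPKM of HSP90AA1 in vehicle MDAH-2774 and at 3.99 to 4.024 times in vehicle OVSAHO. The groups did not overlap for these 6 genes, 4 higher and 2 lower, as for 77.5% of all genes (38.7% higher and 38.9% lower), and the 6 calls held in every alternative tried.

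Lestaurtinib lowered HSPA8 and both HSP90 genes in MDAH-2774. HSPA8, HSP90AA1, HSP90AB1, DNAJB1 and HSPB1 fell and none of the 10 rose. At an unadjusted p below 0.05 edgeR had 1 of them higher and 6 lower, DESeq2 called 0 higher and limma-voom 1. The fitted ratios of treated to vehicle ran from 0.808 for HSPB1 to 0.8822 for DNAJB1. Of all genes tested, 17.1% were called in this comparison, 9.05% lower and 8.08% higher. The median log2 change was -0.20 over the 10 genes and 0.01 over all genes.

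HSPA8 measured 2827, 2687 and 2601 CPM with vehicle and 2090, 2260 and 2417 CPM with the drug. All treated libraries lay below all vehicle libraries, and the log2 change was -0.26 ± 0.05 SE (edgeR adjusted p = 0.00271). HSP90AA1 went from 3110, 3091 and 2997 CPM to 2475, 2616 and 2696 CPM, again with no overlap (log2 -0.24 ± 0.05 SE, adjusted p = 0.00321). HSP90AB1 went from 5221, 4799 and 4840 CPM to 4101, 4225 and 4528 CPM, with no overlap either (log2 -0.21 ± 0.05 SE, adjusted p = 0.00452). These 3 genes held ranks 22 to 90 of the table in this line, and their calls held in every alternative tried. The 10 genes together held 1.32 to 1.376% of all counts in the vehicle libraries and 1.176 to 1.265% in the treated ones, and these ranges did not overlap.

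DNAJB1 measured 125.6, 122.1 and 137.4 CPM with vehicle and 117, 113.3 and 109.5 CPM with the drug (log2 -0.18 ± 0.06 SE, adjusted p = 0.0376). HSPB1, the small heat shock protein HSP27, measured 103.7, 120.3 and 127.4 CPM with vehicle and 90.18, 102.9 and 90.78 CPM with the drug (log2 -0.31 ± 0.10 SE, adjusted p = 0.0445). The treated libraries lay below the vehicle libraries for both genes, for HSPB1 by a narrow margin. Both calls were lost in 8 of 24 alternatives, with adjusted p-values up to 0.157 and 0.162. Among the libraries left out in turn, DNAJB1 lost its call without any 1 of the 3 treated libraries or vehicle library 3, and HSPB1 without treated library 1 or 3 or vehicle library 2 or 3.

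The other genes did not pass the test in MDAH-2774. HSPD1 measured 1498, 1536 and 1544 CPM with the drug against 1459, 1393 and 1401 CPM with vehicle, so that its groups did not overlap, and the log2 change was 0.11 (adjusted p = 0.108). HSPE1, its partner, had a log2 change of -0.21 (adjusted p = 0.153) with overlapping groups. HSPH1 had one of -0.08 without overlap. HSPA1A and HSPA1B had log2 changes of -0.08 and -0.07, with 95% intervals of -0.38 to 0.22 and -0.38 to 0.23. Treated and vehicle libraries failed to overlap for 7 of the 10 genes, 6 lower and 1 higher, and for 38.8% of all genes tested, 18.9% lower and 19.8% higher.

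**Figure D2:**
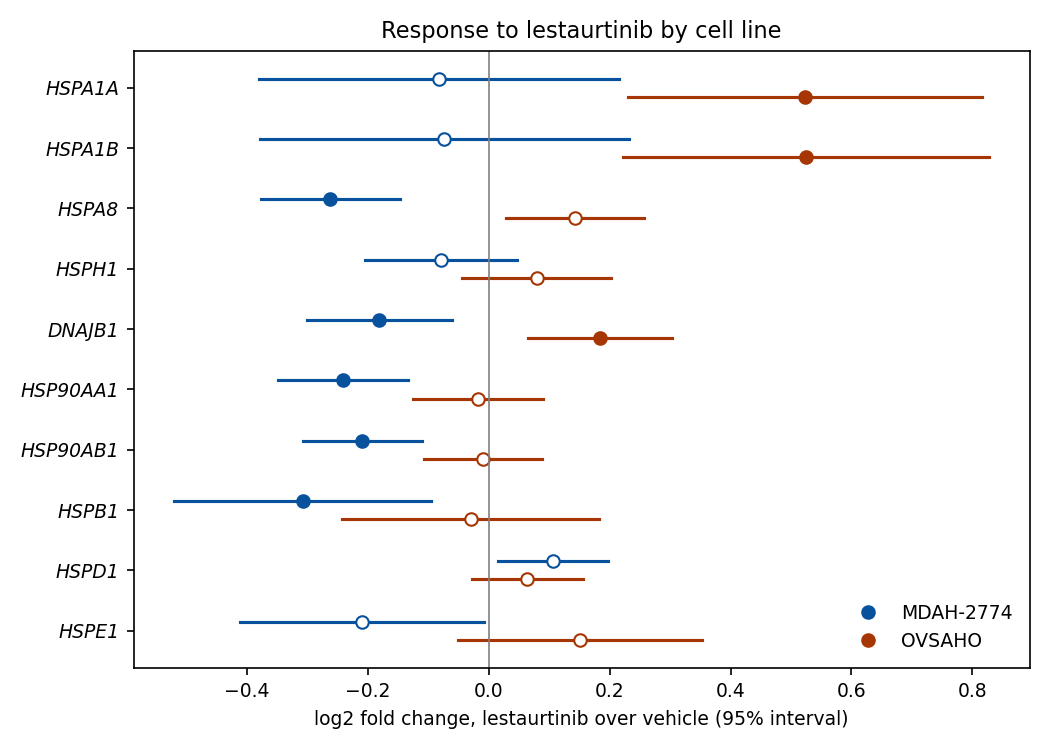
Log2 change of the 10 genes with lestaurtinib against vehicle in MDAH-2774 and OVSAHO, with the 95% interval of the edgeR fit as bars and filled points for genes called at an adjusted p below 0.05. In MDAH-2774 the filled points are HSPA8, HSP90AA1, HSP90AB1, DNAJB1 and HSPB1, all below 0, and in OVSAHO they are HSPA1A, HSPA1B and DNAJB1, all above 0.

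In OVSAHO the inducible HSP70 pair and DNAJB1 were called higher with the drug, but these calls depended on the fit. Those of HSPA1A, HSPA1B and DNAJB1 were lost in 4, 5 and 13 of 24 alternatives. HSPA1A, HSPA1B and DNAJB1 rose, none of the 10 fell, and the fitted increases were 1.437-fold, 1.439-fold and 1.136-fold. Of all genes tested, 15.7% were called in this comparison, 9.19% higher and 6.54% lower. The median log2 change was 0.11 over the 10 genes and 0 over all genes. With both HSP70 copies, which can share reads, summed to 1 row, the median of these genes was 0.08. At an unadjusted p below 0.05 edgeR had 4 of the 10 higher and 0 lower, and DESeq2 and limma-voom called 0 lower.

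HSPA1A measured 635.4, 400.2 and 542.2 CPM with vehicle and 686.9, 721.7 and 859.1 CPM with the drug. The groups did not overlap, although the highest vehicle and the lowest treated library were close (log2 0.52 ± 0.14 SE, edgeR adjusted p = 0.016). HSPA1B measured 549.2, 342.3 and 473 CPM with vehicle and 580.8, 622.7 and 759.5 CPM with the drug (log2 0.52 ± 0.14 SE, adjusted p = 0.0196). With the counts of both copies added to 1 row, the log2 change was 0.52 (adjusted p = 0.017). The call of HSPA1A was lost without treated library 3 (log2 0.40, adjusted p = 0.0945) and without vehicle library 2 (log2 0.35, adjusted p = 0.0766). The same 2 libraries ended the call of HSPA1B, at adjusted p = 0.116 and 0.0906.

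The levels of the HSP70 pair moved with a GC index of the libraries. The index per library, the mean line-centred log2 CPM of the tenth of genes with the most GC (at least 61.5%) minus that of the tenth with the least (at most 38.6%), was added after the values were seen and computed without the 10 genes. It was -0.04, 0.04 and 0.35 in treated and 0.10, -0.29 and -0.16 in vehicle OVSAHO libraries 1 to 3, and -0.15 to 0.13 in MDAH-2774. Treated library 3 and vehicle library 2, which decided the calls, held the highest and the lowest index. Over the 12 libraries the line-centred levels of HSPA1A and HSPA1B, whose transcripts hold 59.7 and 58.7% GC, had Pearson r of 0.91 and 0.92 with the index. HSPB1, with the most GC at 64.3%, had r = 0.52, and DNAJB1, at 53%, had r = 0.54. The remaining genes, at 40 to 50.2% GC, had r of -0.47 to -0.09. Among genes named below for their likeness to HSPH1 or HSPB1, DPAGT1, at 58.4% GC, had r = -0.15. TMEM132A, HSD3B7 and MICALL2, at 59.9, 61.5 and 65.5% GC, had r of 0.47, 0.41 and 0.46. How r with the index runs over all GC-rich genes was not measured. Centring was by line and not by group, so changes with the drug enter the index. With the index as a covariate in the fit, the OVSAHO change of HSPA1A was 0.24 (adjusted p = 0.0452) and that of HSPA1B was 0.22 (adjusted p = 0.0546). Its part in the rise was not tested beyond this fit.

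DNAJB1 measured 317.9, 310 and 302.8 CPM with vehicle and 354.7, 333.9 and 368.9 CPM with the drug. The groups did not overlap, and the log2 change was 0.18 ± 0.06 SE (adjusted p = 0.0344). This call was lost in 13 of 24 alternatives, with the GC index as a covariate among them (log2 0.13, adjusted p = 0.164) and without OVSAHO treated library 1 or 3, any 1 of the 3 OVSAHO vehicle libraries or MDAH-2774 treated library 2 (adjusted p of 0.0514 to 0.223). HSPA8 measured 1768, 1979 and 1782 CPM with vehicle and 2085, 2025 and 1995 CPM with the drug. Its groups did not overlap, by a narrow margin, but the change of 0.14 on the log2 scale missed the threshold (adjusted p = 0.0866). It passed with the GC index as a covariate (log2 0.21, adjusted p = 0.0119) and without vehicle library 2 (log2 0.19, adjusted p = 0.0283).

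The HSP90 pair, which fell in MDAH-2774, did not pass the test in OVSAHO. HSP90AA1 had a log2 change of -0.02 (95% interval -0.13 to 0.09) and HSP90AB1 one of -0.01 (-0.11 to 0.09). HSPB1 had -0.03 (-0.24 to 0.18), and with the GC index as a covariate it was called lower (log2 -0.22, adjusted p = 0.041). HSPH1, HSPD1 and HSPE1 had log2 changes of 0.08, 0.06 and 0.15, and their groups overlapped. Treated and vehicle groups failed to overlap for 4 of the 10 genes, all higher with the drug, and for 30.5% of all genes tested, 15.5% higher and 15% lower. The share of all counts held by the 10 genes was 1.066 to 1.097% in vehicle and 1.113 to 1.143% in treated OVSAHO libraries.

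The responses of the 2 lines were compared by the difference of their log2 changes, OVSAHO minus MDAH-2774. It was positive for 9 of the 10 genes and called for 5, HSPA8, DNAJB1, HSP90AA1, HSPA1A and HSP90AB1, all in the direction of a higher response in OVSAHO. Of all genes tested, 16.8% were called for this difference, 9.22% higher and 7.59% lower in OVSAHO. The median difference was 0.32 over the 10 genes and -0.01 over all genes. With both HSP70 copies summed to 1 row, the median of these genes was 0.28. At an unadjusted p below 0.05, 7 were higher and 0 lower, and DESeq2 and limma-voom called 0 lower. Each of the 10 differences rests on the same 12 libraries as the changes above.

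HSPA8 had the smallest adjusted p of the 10: its log2 change was -0.26 in MDAH-2774 and 0.14 in OVSAHO, a difference of 0.41 ± 0.08 SE (edgeR adjusted p = 0.00168). DNAJB1 was called in both lines in opposite directions, at -0.18 and 0.18, with a difference of 0.37 ± 0.08 SE (adjusted p = 0.00487). The differences of HSPA8 and DNAJB1 were called in every alternative tried. HSPA1A differed by 0.61 ± 0.20 SE (adjusted p = 0.0443), and by 0.35 with the GC index as a covariate (adjusted p = 0.019). HSP90AA1 differed by 0.22 ± 0.07 SE (adjusted p = 0.0429) and HSP90AB1 by 0.20 ± 0.07 SE (adjusted p = 0.0465). The calls of these 3 were lost in 13, 15 and 15 of 23 alternatives. HSPA1A lost its call without MDAH-2774 treated library 1 or 3, MDAH-2774 vehicle library 2 or 3, OVSAHO treated library 2 or 3 or OVSAHO vehicle library 2 or 3 (log2 0.44 to 0.63, adjusted p of 0.0611 to 0.119). HSP90AA1 kept its call in 3 of the 12 fits without 1 library, those without MDAH-2774 treated library 3, OVSAHO treated library 3 and OVSAHO vehicle library 2, and had adjusted p of 0.0527 to 0.171 in the others. HSP90AB1 kept it in 3, those without MDAH-2774 treated library 3, MDAH-2774 vehicle library 2 and OVSAHO vehicle library 2, and had adjusted p of 0.0548 to 0.161 in the others. HSPA1B (0.60, adjusted p = 0.0538), which was called in 7 of the alternatives, HSPE1 (0.36), HSPB1 (0.28), HSPH1 (0.16) and HSPD1 (-0.04) did not pass.

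HSPA1A and HSPA1B lie 9793 bases apart in the class III region of the major histocompatibility complex on chromosome 6, each with 1 exon, and encode nearly the same protein. Reads that match both copies can be split or dropped by the counting, so their separate levels are uncertain. HSPA1A held 40.06 to 40.89% of the counts of the pair in the MDAH-2774 libraries and 53.08 to 54.18% in the OVSAHO libraries. The lines did not overlap in this share, and the ranges of treated and vehicle libraries overlapped within each line. The summed level was 260.3 to 365.6 CPM in vehicle and 272.1 to 325.8 CPM in treated MDAH-2774 libraries. In OVSAHO it was 742.4 to 1185 CPM with vehicle and 1268 to 1619 CPM with the drug.

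**Figure D3:**
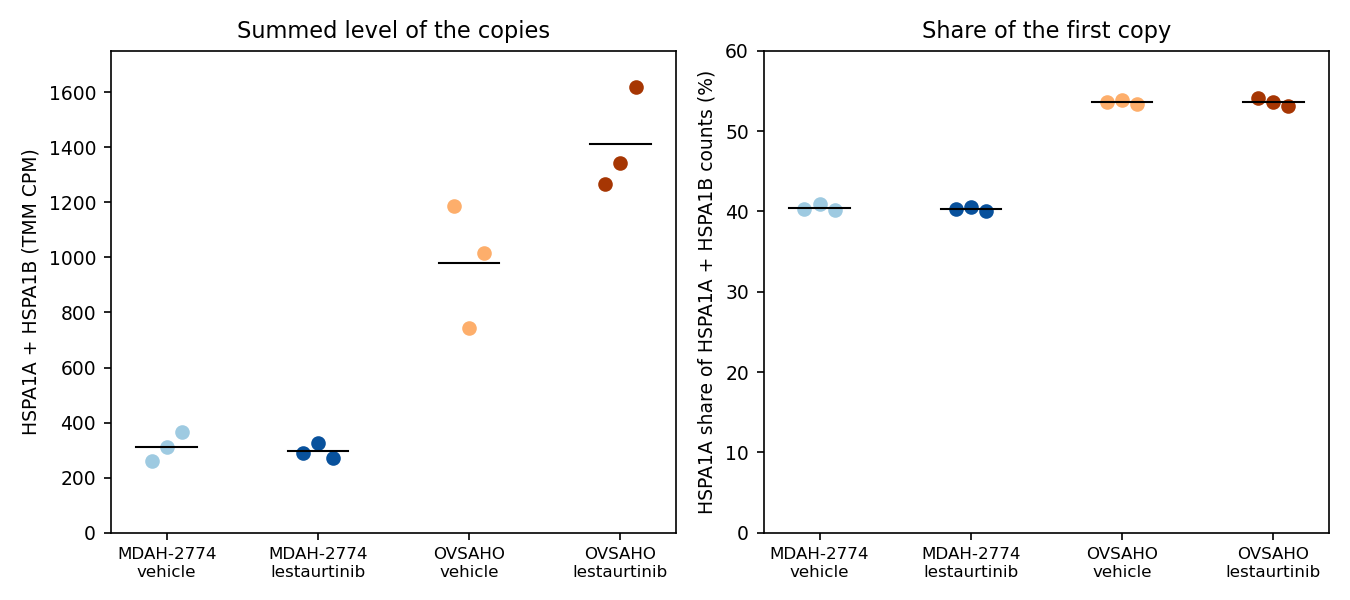
The left panel shows the summed CPM of HSPA1A and HSPA1B in each library by group, and the right panel the percent of those counts assigned to HSPA1A, with 1 point per library and a line at the group mean. The summed level is at least 742.4 CPM in every OVSAHO and at most 365.6 CPM in every MDAH-2774 library, and the share lies between 40.06 and 40.89% in MDAH-2774 and between 53.08 and 54.18% in OVSAHO.

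Across the 12 libraries, with each line centred on its own mean, several pairs of genes varied together. HSPA1A and HSPA1B had Pearson r = 0.998 (Spearman rho 0.993), HSP90AA1 and HSP90AB1 r = 0.928, HSPA8 and HSP90AB1 r = 0.872, and HSPA8 and HSP90AA1 r = 0.816. HSPA8 and HSPE1 had r = 0.815, HSPA8 and HSPH1 r = 0.757, and HSPA1A and DNAJB1 r = 0.663. HSPB1 and HSPD1 had the lowest value, r = -0.801, and HSPD1 and HSPE1, the partners in 1 chaperonin, had r = 0.013. Centring was by line and not by group, so the changes with the drug given above enter these values, which are not separate from them. The points share library and depth, some genes moved with the GC index, and the HSP70 copies can share reads.

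**Figure D4:**
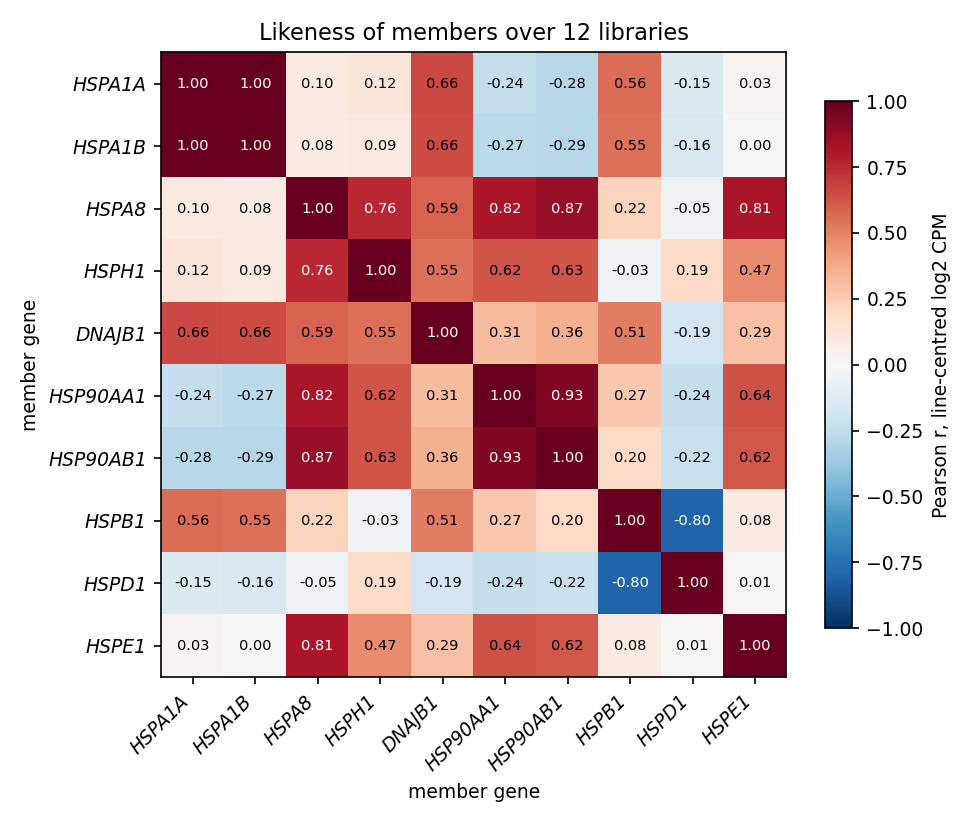
Pearson r between each pair of the 10 genes over 12 libraries, from log2(CPM + 0.5) centred within each line. The highest value between different proteins is 0.928 for HSP90AA1 with HSP90AB1, and the lowest is -0.801 for HSPB1 with HSPD1.

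For HSPH1, HSPD1 and HSPB1 the nearest profiles among 10042 other genes of at least 5 CPM were listed. For HSPH1 they were ALAS1 (r = 0.919), DPAGT1 (0.893) and SLC25A44 (0.891). For HSPD1 they were ANXA1 (0.966), ALG13 (0.957) and FANCL (0.943). For HSPB1 they were TMEM132A (0.968), HSD3B7 (0.965) and MICALL2 (0.963). With this many genes and 12 libraries, the best matches of a search can be high for any gene. How high they run for other genes was not measured. Changes with the drug enter these values too, and they are given as a description.

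HSF1, the main activator of these genes, was itself higher in OVSAHO. It measured 28.57, 32.17 and 37.33 CPM in vehicle MDAH-2774 and 87.56, 71.34 and 70.34 CPM in vehicle OVSAHO (log2 1.23 ± 0.12 SE, edgeR adjusted p = 3.95e-08). With the drug it measured 32.96, 31.6 and 30.32 CPM in MDAH-2774. In treated OVSAHO it measured 87.18, 85.74 and 110.1 CPM, and its log2 change of 0.30 missed the threshold (adjusted p = 0.0833) and was 0.08 with the GC index as a covariate. HSF2 stood at 25.64 to 33.5 CPM in all 12 libraries. Of 6 HSF and HSF-binding protein genes, 1 was called in MDAH-2774, HSBP1L1 (log2 0.83, adjusted p = 0.0232; not called without any 1 of the treated libraries or vehicle library 3), and 0 in OVSAHO, where 1 had an unadjusted p below 0.05, DESeq2 called 0 and limma-voom 1. HSF1 acts mainly through its protein state, which RNA levels do not show.

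Other chaperone genes were read from lists of named families, against the same background shares of all genes tested. These were 8.08% higher and 9.05% lower in MDAH-2774, and 9.19% higher and 6.54% lower in OVSAHO. Where a count of 0 is given, edgeR without adjustment, at p below 0.05, found 0 to 2 genes in that direction, and DESeq2 and limma-voom called 0 or 1. Among 22 HSP90 cochaperones, which load, time or release HSP90 clients, 2 rose and 4 fell in MDAH-2774 (median log2 change -0.05). In OVSAHO 5 rose and 0 fell (median 0.08). The 2 that rose in MDAH-2774 lie near the background share. STIP1, which bridges HSP70 and HSP90, fell by 0.28 on the log2 scale in MDAH-2774 (adjusted p = 0.000533) and rose by 0.25 in OVSAHO (adjusted p = 0.00191). Its mean went from 433.6 to 356.3 CPM and from 404.1 to 479 CPM. NUDC, a cochaperone known for its part in dynein function, did the same, at log2 -0.39 and 0.39 (adjusted p = 0.00019 and 0.000252). The differences between lines were 0.53 for STIP1 (adjusted p = 4.76e-05) and 0.78 for NUDC (adjusted p = 8.67e-06). FKBP4, a cochaperone of steroid receptors, fell in MDAH-2774 (log2 -0.26) and had a log2 change of 0.09 in OVSAHO that did not pass. AHSA2P, which is on the list though its symbol marks a pseudogene, rose in MDAH-2774 (log2 0.61). The 5 higher calls in OVSAHO became 2 without OVSAHO treated library 3 or vehicle library 2 and on both RPKM scales. They became 3 without OVSAHO vehicle library 3 or any 1 of the MDAH-2774 treated libraries, with the replicate block and with the GC index as a covariate. The 2 higher calls in MDAH-2774 became 1 in 7 of 24 alternatives, among them without any 1 of its treated libraries or vehicle library 2 or 3.

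Of 14 subunits of the cytosolic chaperonin TRiC and of prefoldin, which together fold actin and tubulin, 0 rose and 6 fell in MDAH-2774. They were CCT2, CCT5, TCP1, PFDN1, PFDN2 and PFDN6, and the list's median log2 change was -0.13. The count was 2 without MDAH-2774 treated library 1 or 2, and 3 without MDAH-2774 vehicle library 1 or OVSAHO treated library 2, with the replicate block, upper-quartile scaling and both RPKM scales. It was 4 without MDAH-2774 vehicle library 3 and at most 8, with DESeq2, limma-voom and the GC index among others. CCT2 (log2 -0.16, adjusted p = 0.0342) lost its call in 11 of 24 alternatives, at adjusted p up to 0.166. In OVSAHO 1 rose, CCT5, and 0 fell (median 0.03). CCT5 went from 815.9 to 712.4 CPM in MDAH-2774 (log2 -0.20, adjusted p = 0.00474) and from 780.2 to 883 CPM in OVSAHO (log2 0.18, adjusted p = 0.0101), and the difference between lines was 0.37 (adjusted p = 0.000552). PFDN2 went from 88.69 to 67.58 CPM in MDAH-2774 (log2 -0.39, adjusted p = 0.00213). The OVSAHO call of CCT5 was lost in 6 of 24 alternatives, among them without treated library 1, 2 or 3 or vehicle library 1 or 3 (log2 0.13 to 0.17, adjusted p of 0.058 to 0.106).

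Another list of 8 genes held nucleotide exchange factors of HSP70, BAG proteins and ST13. Of these 8, 3 rose and 0 fell in OVSAHO and 0 were called in MDAH-2774, and the median was 0.05 in both lines. In OVSAHO 2 were called lower without vehicle library 1. BAG1 rose from 105.6 to 157.4 CPM (log2 0.58 ± 0.07 SE, adjusted p = 1.23e-05), HSPBP1 from 27.53 to 43.38 CPM (log2 0.65, adjusted p = 0.00233) and BAG3, the stress-inducible member, from 57.35 to 72.8 CPM (log2 0.34, adjusted p = 0.00997). The difference between lines was called for all 3, at 0.41, 0.63 and 0.50 (adjusted p = 0.0071, 0.0246 and 0.00795). BAG3 lost its OVSAHO call without treated library 2 or 3 or vehicle library 2 (adjusted p of 0.0536 to 0.0763) and with the GC index as a covariate (log2 0.24, adjusted p = 0.0748). HSPBP1 rose by log2 0.41 with that covariate, and its difference lost the call in 8 of 23 alternatives (adjusted p up to 0.0744).

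**Figure D5:**
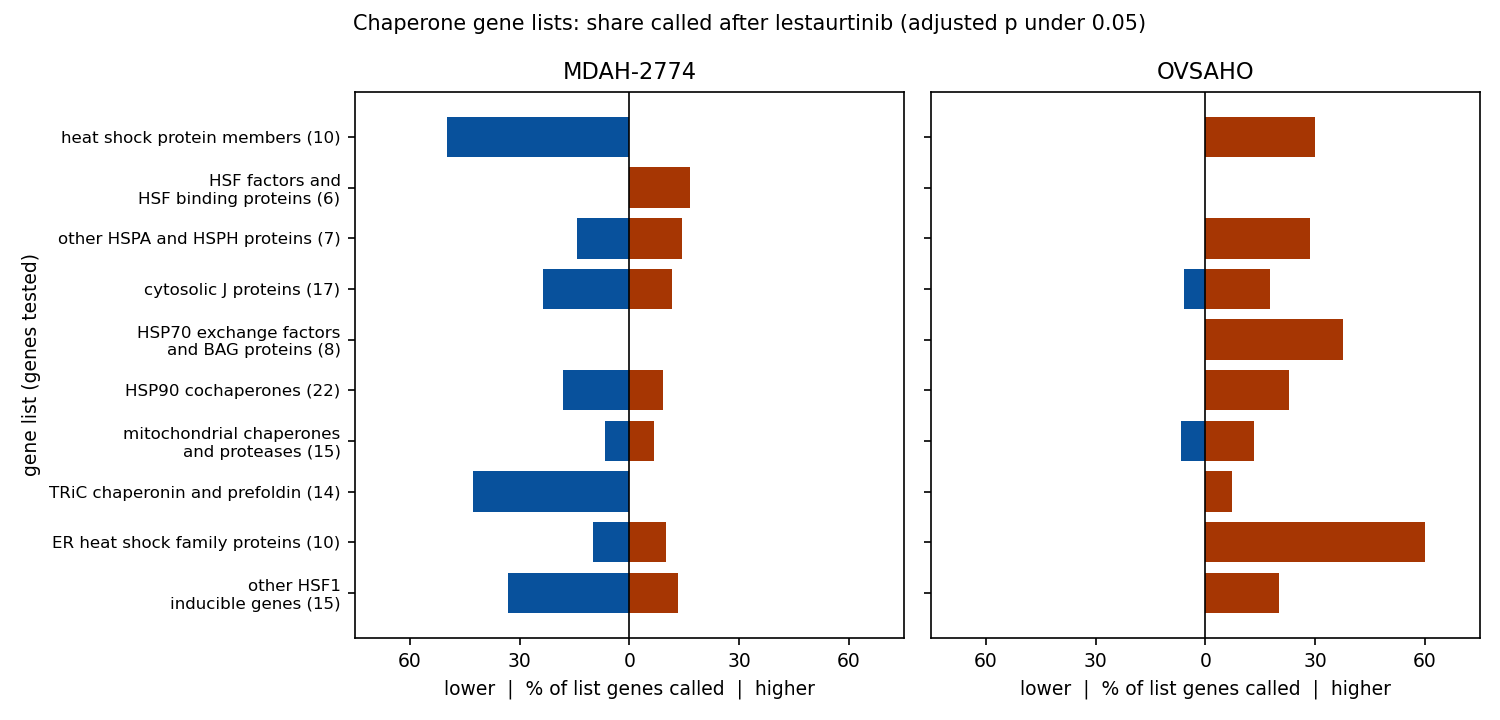
Percent of the tested genes of each chaperone list that were called lower (left of 0) and higher (right of 0) with lestaurtinib, in MDAH-2774 and OVSAHO. In MDAH-2774 6 of 14 TRiC and prefoldin genes lie on the lower side, and in OVSAHO 6 of 10 endoplasmic reticulum genes lie on the higher side. Of all genes tested, 9.05% were called lower in MDAH-2774 and 9.19% higher in OVSAHO.

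Of 7 other HSP70 and HSP110 genes, 1 rose and 1 fell in MDAH-2774, and 2 rose and 0 fell in OVSAHO (medians -0.02 and 0.21). HSPA2, best known from the testis, rose in both lines, from 10.57 to 16.58 CPM in MDAH-2774 (log2 0.65, adjusted p = 0.00403) and from 29.33 to 72.51 CPM in OVSAHO (log2 1.30, adjusted p = 4.24e-06). HSPA14 rose in OVSAHO (log2 0.21, adjusted p = 0.0243), and lost the call in 6 of 24 alternatives, among them without treated library 1 or 2 or vehicle library 1 or 3 (adjusted p of 0.1 to 0.146). HSPA4, an HSP110 relative, fell in MDAH-2774 (log2 -0.18, adjusted p = 0.0335). It lost the call in 8 of 24, among them with the replicate block and without treated library 1 or 2 or vehicle library 1 or 3 (adjusted p of 0.0541 to 0.158). Of 17 cytosolic J proteins, 2 rose and 4 fell in MDAH-2774 and 3 rose and 1 fell in OVSAHO (medians -0.03 and 0.03). The 2 higher calls in MDAH-2774 and the 1 lower call in OVSAHO lie near the background shares. The 4 lower calls became 2 without MDAH-2774 treated library 2 or 3 or vehicle library 2 and on both RPKM scales. DNAJB6, known to hold back aggregation, rose in both lines (log2 0.28 and 0.32). DNAJB5 fell in MDAH-2774 from 10.71 to 4.37 CPM (log2 -1.29, adjusted p = 5.02e-06), the largest decrease among the J proteins named here, and DNAJB2 fell with it (log2 -0.85).

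Of 10 genes of the endoplasmic reticulum branch of the family, 6 rose and 0 fell in OVSAHO, and 1 rose and 1 fell in MDAH-2774 (medians 0.29 and -0.03). The rise in MDAH-2774, of DNAJC10, was not called without treated library 1 or vehicle library 2. HSPA5, the HSP70 of that compartment, went from 481.5 to 690.4 CPM in OVSAHO (log2 0.52 ± 0.05 SE, adjusted p = 9.41e-07). HYOU1 (log2 0.50) and HSP90B1 (log2 0.31), its HSP110 and HSP90 counterparts, rose as well. Of 15 mitochondrial chaperones and proteases, 1 rose (GRPEL2) and 1 fell (CLPB) in MDAH-2774, and 2 rose (CLPP and LONP1) and 1 fell (CLPX) in OVSAHO, of which LONP1 and CLPX were not called with the GC index as a covariate. The medians were -0.0045 and 0.06, and the counts of this list lie near the background shares in both lines. GRPEL2 and CLPB were not called without MDAH-2774 treated library 1 or vehicle library 2. In OVSAHO 0 rose without treated library 3 or vehicle library 2 or 3, and 1 without treated library 1 or 2. CLPX was not called without treated library 2 or vehicle library 2 or 3. Of 15 further genes known to be heat inducible through HSF1, 2 rose and 5 fell in MDAH-2774, and 3 rose and 0 fell in OVSAHO (medians -0.01 and 0.09). The 2 that rose became 1 without any 1 of the MDAH-2774 treated libraries or vehicle library 3, and the 3 became 1 without OVSAHO treated library 2. Some genes, such as STIP1 and FKBP4, are on more than 1 of these lists. Of 9 other small heat shock protein genes, 1 (CRYAB) had a row, and it was called in neither line.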

How the data were processed

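The 12 RNA sequencing libraries (3 for each line with and without the drug) were grouped by the titles in the labels. The labels' protocols give miRNeasy extraction of total RNA and TruSeq stranded mRNA libraries. The submitters' processing notes list STAR 2.7.3a, featureCounts 2.8.2 and the build hg38, and no strand setting was found in the labels. The authors deposited 1 table with raw read counts and RPKM values for each gene and library. The lowest maximum RPKM of a listed gene was 1.0005. Genes with no row were not analysed here.

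The counts entered the quasi-likelihood test of edgeR 4.0.16 (R 4.3.3) with TMM scaling, in 1 fit of all libraries with a term for each group and without a block. Of the genes, 13498 passed filterByExpr at a minimum count of 10 and 371 did not, p-values were Benjamini-Hochberg adjusted over all of them, and the threshold was 0.05, two-sided. The standard error is the log2 change divided by the root of the F statistic. The common dispersion gave a coefficient of variation of 0.125. Replicate libraries differed beyond sampling noise (chi-square per degree of freedom 5.754 to 28.18). The tests were tried on simulated data.

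The genes, the lists and the tests were chosen with earlier results of these data known. All 10 genes were named in every comparison, with HSF1 and HSF2, and from each list up to 4 genes over 1 CPM whose adjusted p with treatment was lowest. Other list genes are named where a list had few calls, and were then chosen after their values were seen. Likeness used log2(CPM + 0.5) centred within each line. Gene positions are those of the deposited table and promoters those of RefSeq (GRCh38.p14). GC content came from the longest GENCODE v29 transcript per symbol (12938 genes, 95.9% of those tested). Alternatives were RLE and upper-quartile scaling, other filters, DESeq2 1.42.0, limma-voom (limma 3.58.1), limma on log2(RPKM + 1) or log2(RPKM + 0.1), a replicate block, each line alone, both HSP70 copies summed, leaving out each library and, added after seeing the data, the GC index as a covariate.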

Additional observations from a re-analysis of the deposited data

Results flagged for a closer look

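The change with lestaurtinib differed between the lines for 5 of the 10 genes by a test of the difference itself (edgeR, OVSAHO minus MDAH-2774, 3 libraries a group), against 16.8% of all genes tested. The difference was 0.61 on the log2 scale for HSPA1A, 0.41 for HSPA8, 0.37 for DNAJB1, 0.22 for HSP90AA1 and 0.20 for HSP90AB1. HSPA8 and DNAJB1 had changes of opposite sign in the lines, with no overlap between treated and vehicle libraries in either line. Among all genes, 38.8% in MDAH-2774 and 30.5% in OVSAHO did not overlap. For HSPA8 in OVSAHO the margin was narrow (1979 against 1995 CPM), and its change was not called (edgeR adjusted p = 0.0866). The OVSAHO call of DNAJB1 was lost in 13 of 24 alternatives and its MDAH-2774 call in 8. For HSP90AA1 and HSP90AB1 the treated libraries lay below the vehicle libraries in MDAH-2774 and overlapped them in OVSAHO, and for HSPA1A they lay above them in OVSAHO and overlapped them in MDAH-2774. The differences of HSPA1A, HSP90AA1 and HSP90AB1 were not called in 13, 15 and 15 of 23 alternatives, the replicate block included.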

How the results depend on the processing

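The vehicle difference of 6 genes, the MDAH-2774 decreases of HSPA8, HSP90AA1 and HSP90AB1, and the line differences of HSPA8 and DNAJB1 were called in all alternatives. Genes called lower in MDAH-2774 numbered 5, but 3 with upper-quartile scaling, with limma on either RPKM scale and with the replicate block, and 3 to 5 without 1 library. HSPD1 was the 1 gene called higher there with limma-voom, both RPKM scales and the GC covariate. Genes called higher in OVSAHO numbered 3, but 0 on both RPKM scales, and 0 to 3 without 1 library (0 without treated library 3, 1 without vehicle library 2); 1 was called lower with the GC covariate. Differences called numbered 5, but 2 with upper-quartile scaling, both RPKM scales and the replicate block, and 3 without a filter. They numbered 7 with the GC covariate and 2 to 5 without 1 library. Genes lower in vehicle OVSAHO numbered 2, but 4 on both RPKM scales, where the median of all genes was -0.133 and -0.165 against -0.0164. Over all genes, leaving out 1 library gave 656 to 1118 higher and 807 to 1344 lower in MDAH-2774, and 746 to 1311 higher in OVSAHO, and log2(RPKM + 1) gave 1547 lower for the difference. The share of higher calls was 56.1% in MDAH-2774, 46% in OVSAHO and 39.5% for the difference with upper-quartile scaling, and 60%, 49.4% and 39.8% with log2(RPKM + 1), against 1090 higher and 1222 lower calls, 1241 and 883, and 1244 and 1024. The cause was not tested.

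Signs of changes that had not been called turned as follows. Leaving out 1 library in turn gave HSPA1A -0.2003 to 0.04183 and HSPA1B -0.1879 to 0.06049 in MDAH-2774, positive without vehicle library 3. In OVSAHO it gave HSPB1 -0.1441 to 0.05019 (0.004956 without treated library 1 and highest without vehicle library 1), HSP90AA1 -0.08556 to 0.01136 (highest without treated library 3, and 0.009716 without vehicle library 2) and HSP90AB1 -0.06208 to 0.02065 (highest without vehicle library 2). With the GC covariate HSP90AA1 was 0.06049 and HSP90AB1 0.0562. The vehicle difference of HSP90AB1 ran from -0.06574 to 0.01698 (highest without OVSAHO library 1, 0.0146 without MDAH-2774 library 1 and 0.000669 without OVSAHO library 3). Within each line, deviations of same-numbered treated and vehicle libraries had r of -0.118 to 0.0306, and those of differently numbered ones -0.158 to 0.16. With 3 libraries a group, these values cannot decide whether libraries of equal number belonged together. Libraries of equal number were not compared across the lines. With the replicate block, 939 genes were higher and 1061 lower in MDAH-2774 and 1050 and 745 in OVSAHO, and the block ended the calls of DNAJB1 in both lines, of HSPB1 in MDAH-2774, and of the differences of HSPA1A, HSP90AA1 and HSP90AB1. Among the other genes followed through the alternatives, it ended the MDAH-2774 calls of HSPA4, DNAJC8, CCT2 and KRT8 (adjusted p of 0.0532 to 0.0541), the OVSAHO call of CD68 (adjusted p = 0.0554) and the differences of HSPA4, CCT2, LONP1 and KRT7 (adjusted p of 0.055 to 0.0793).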
